A study of Mus musculus with 4 samples.

Results

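Apolipoproteins are the protein coat of the lipoproteins that carry triglyceride and cholesterol through the plasma, and most of them are made by hepatocytes. The genes examined here are Apoa1, Apoa2, Apoa4, Apoa5, Apob, Apoc1, Apoc2, Apoc3, Apoc4 and Apom, chosen by symbol. Of these 10 genes, 9 had a row of their own among the 24138 rows of the table, and all 9 averaged 1 FPKM or more over the livers, as did 10541 rows in all, termed expressed here. FPKM is a fragment count divided by transcript length and by library size, so levels of different genes can be set side by side. Apoc4 had no row under its symbol. The row named Apoc2 (chromosome 7, 19671579 to 19681460) covers the whole RefSeq span of Apoc4 (19678084 to 19681460) as well as that of Apoc2, which ends at 19677941, so its value could hold fragments of both genes.

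Liver was sampled from 4 male mice of the strain C57BL/6J at the age of 18 weeks. Each animal had been fed the FAT-MASH diet, a model of MASH (metabolic dysfunction-associated steatohepatitis, a fatty liver disease with inflammation and scarring), and had been treated with resolvin D1 (RvD1), a lipid mediator of the resolution of inflammation. Dose, schedule and route are not given in the labels. The samples form a single group, called livers 1 to 4 here, and no liver without RvD1 or without the diet was analysed here. Every value below is therefore a level in treated animals or a spread between them, and no test between groups was possible.

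Lipoproteins containing apolipoprotein B leave the liver loaded with triglyceride, which lipoprotein lipase removes in the capillaries of other tissues. Apolipoproteins of the A and C classes sit on these particles and on high-density lipoprotein (HDL), where they activate or restrain the lipase, shape the particle and steer its uptake. In the mouse many of these genes lie in clusters, with Apoa1, Apoc3, Apoa4 and Apoa5 on chromosome 9 and Apoe, Apoc1, Apoc4 and Apoc2 on chromosome 7.

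The sequences before the transcription start of Apoa2, the member with the widest spread between animals, and of Apoa5, the other member that was highest in liver 3 as deposited, are shown because neither window holds an annotated GENCODE exon. Each is the 250 bases before a RefSeq start, 5′ to 3′ on the plus strand of GRCm38.p6, with capitals marking the motif TATAAA, the core of a TATA box.
Apoa2, chr1:171224804-171225053: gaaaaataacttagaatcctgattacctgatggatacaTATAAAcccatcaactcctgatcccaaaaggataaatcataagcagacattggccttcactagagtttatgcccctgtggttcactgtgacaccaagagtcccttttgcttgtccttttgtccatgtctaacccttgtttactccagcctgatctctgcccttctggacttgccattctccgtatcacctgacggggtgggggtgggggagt
Apoa5, chr9:46268358-46268607: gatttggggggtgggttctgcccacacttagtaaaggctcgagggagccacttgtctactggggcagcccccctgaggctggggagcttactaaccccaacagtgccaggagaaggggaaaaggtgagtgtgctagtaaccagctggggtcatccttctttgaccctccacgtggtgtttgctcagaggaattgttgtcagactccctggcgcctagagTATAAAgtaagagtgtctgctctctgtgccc
In Apoa5 the motif lay 31 to 26 bases before the start, and in Apoa2 it lay 212 to 207 bases before it. On either strand, TATAAA was found in the windows of 3 of the 8 members with a RefSeq promoter, namely Apoa2, Apoa5 and Apob, and in 12.4% of 32851 promoter windows of the same length. The nuclear receptor half-site AGGTCA was found for Apoa2 (in the window of a second start), Apoc2 and Apoc4. That is 3 of 8 members by any window and 2 of 8 by the first window of each, where 14% of all windows held it. The HNF1 half-site GTTAAT was found in the window of Apoc2 alone, and in 6.43% of all windows. The HNF4 element CAAAGTCCA was found in 0 of 8 members, and in 0.384% of all windows. These matches describe letters in the windows searched.

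The libraries were of like size. The estimated depth was between 18.8 and 20.1 M (mega) fragments, and the summed FPKM was between 516816 and 570681. Liver 4 had the highest sum, and of the 1407 genes averaging 50 FPKM or more, termed abundant here, 53% were highest in liver 4. Of the 10 hepatocyte markers 8 were expressed, while Alb and Trf were listed at 0 in every library, and the summed markers were between 24049 and 29055 FPKM. For the intestinal epithelium, another source of apolipoproteins, 2 of 6 markers were expressed, Fabp2 at 123 to 166 FPKM and Lgals4 at 6.40 to 10.2 FPKM, while Vil1 was between 0.0969 and 0.265 FPKM and Cdx2 was listed at 0 throughout. Of the 6 markers of the pancreatic acinar cell 5 were listed at 0 throughout.

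Apoa1 and Apoa2, the main proteins of HDL, had the highest means in the table, in which some abundant liver genes are listed at 0, and they differed in how they varied. Apoa1 (chromosome 9, 46228630 to 46230469) is the activator of the cholesterol-esterifying enzyme LCAT. It was 11922, 12319.9, 12295 and 15343 FPKM in livers 1 to 4, with a mean of 12970.0 ± 1593 FPKM (SD, n = 4). Livers 1, 2 and 3 lay within 1.03-fold of each other and liver 4 was 1.25-fold above the next highest. In liver 4 the deviation of Apoa1 from its mean was 0.25 on the log2 scale, against a median of 0.12 for abundant genes. With the libraries scaled to equal totals it was 0.15, and liver 4 was still the highest. As deposited, the gap of the most extreme liver passed the 95% critical value of Dixon's ratio in 1 of 9 members, Apoa1 (0.884), and in 5.54% of abundant genes, and it passed with liver 4 as the highest in 1.85% of them. The ratio of Apoa1 was below that value with either scaling, at 0.820 with each library divided by its median ratio over expressed genes (median-ratio scaling) and 0.746 with totals made equal. In bulk liver, a difference in the number of hepatocytes and a difference in RNA per hepatocyte cannot be told apart.

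Apoa2, which stabilises HDL and modulates its remodelling, was 17255, 11166, 20665 and 13518 FPKM in livers 1 to 4, with a mean of 15651 ± 4179 FPKM (SD, n = 4). The highest liver exceeded the lowest 1.85-fold, and no single liver set the spread: the ratio was 1.53 without liver 2 and 1.55 without liver 3. The SD of log2(FPKM + 1) was 0.39, wider than that of 95.1% of abundant genes. The row has a span (chromosome 1, 171213970 to 171226379) that it shares with Nr1i3 and Tomm40l, which were between 35.02 and 41.4 FPKM and between 12.6 and 15.5 FPKM.

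The order of the main HDL transcripts differed between animals. Apoa1 stood at 0.691 and 0.595 of Apoa2 in livers 1 and 3, and at 1.10 and 1.14 times Apoa2 in livers 2 and 4. The mean ratio was 0.881 ± 0.278 (SD, n = 4), a 1.91-fold range. Apoa2 exceeded Apoa1 in 2 of 4 livers and their ranges overlapped, so the order of these neighbours did not hold beyond their spread.

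**Figure D1:**
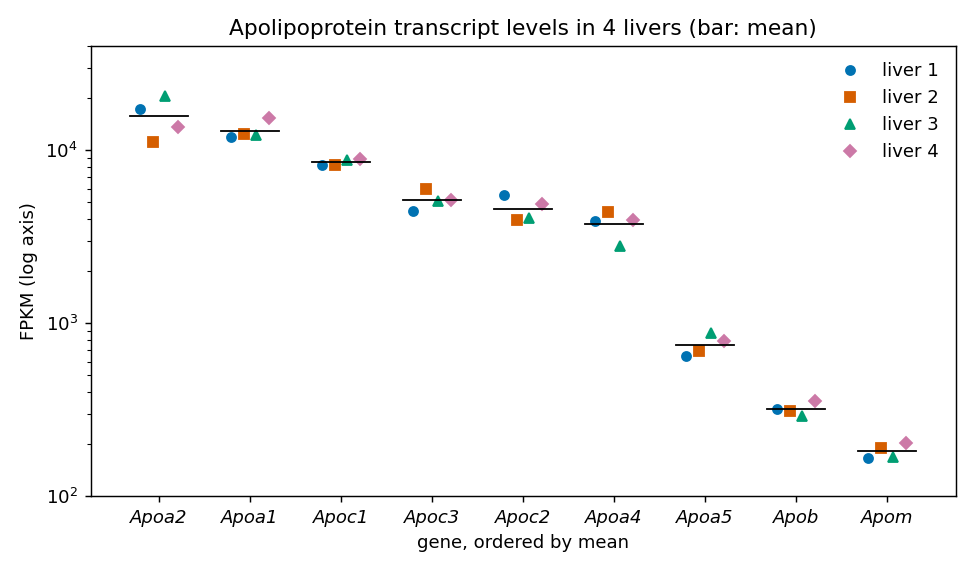
FPKM on a log axis for the 9 apolipoprotein genes with a row, ordered by mean, with 1 symbol for each of 4 livers and a bar for the mean. The points of Apoa2 extend from 11166 to 20665 FPKM across those of Apoa1, whereas the points of Apoc1 nearly coincide.

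Apoa4 and Apom are the other members that travel largely on HDL. Apoa4 (chromosome 9, 46240844 to 46243458), an apolipoprotein of HDL and of triglyceride-rich particles, was 3870.1, 4385, 2779 and 3922 FPKM in livers 1 to 4, with a mean of 3739 ± 680.5 FPKM (SD, n = 4). Liver 3 was the lowest, 1.39-fold under the next, and the highest over the lowest was 1.58. This range rests on livers 2 and 3, since it was 1.41 without liver 2 and 1.13 without liver 3. As deposited, the order of the livers in Apoa4 (2, 4, 1, 3 from the highest) was the reverse of that in Apoa2 (3, 1, 4, 2), but with either scaling livers 1 and 4 changed places in Apoa4. The ratio of Apoa2 to Apoa4 was 4.46, 2.55, 7.44 and 3.45 in livers 1 to 4, a 2.92-fold range.

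Apom (chromosome 17, 35128997 to 35131752), a lipocalin that carries sphingosine 1-phosphate on HDL, was the least abundant member. It was 167, 191, 169 and 204 FPKM in livers 1 to 4, with a mean of 183 ± 17.6 FPKM (SD, n = 4). Livers 2 and 4 were above livers 1 and 3, and the range was 1.22-fold. Liver 4 was the highest as deposited and with median-ratio scaling, and liver 2 was the highest with totals made equal.

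Apob (chromosome 12, 7977677 to 8016839) encodes the structural protein of very-low-density and low-density lipoprotein, of which each particle carries a single copy. It was 319, 311, 290.3 and 356 FPKM in livers 1 to 4, with a mean of 319 ± 27.5 FPKM (SD, n = 4). Its range was 1.23-fold, and 1.11-fold with totals made equal. Apoa1 was 37.4, 39.6, 42.4 and 43.1 times as abundant per length as Apob in livers 1 to 4, a 1.15-fold range and the narrowest of the 12 ratios between members that were computed.

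The regulators of lipoprotein lipase among the members were abundant and varied in different livers. Apoc2, the cofactor that the lipase needs, was 5468, 3941, 4037 and 4879 FPKM in livers 1 to 4 for the row that also spans Apoc4, with a mean of 4581 ± 726 FPKM (SD, n = 4). Apoc3 (chromosome 9, 46233050 to 46235636), which inhibits the lipase and delays the uptake of remnants, was 4467, 5946, 5095 and 5159.85 FPKM, with a mean of 5167 ± 606 FPKM (SD, n = 4). Liver 1 was the highest for Apoc2 and the lowest for Apoc3, and liver 2 was the lowest for Apoc2 and the highest for Apoc3.

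The ratio of the Apoc2 row to Apoc3 was therefore 1.22, 0.663, 0.792 and 0.946 in livers 1 to 4, a 1.85-fold range around a mean of 0.906 ± 0.241 (SD, n = 4). The ratio of the activator to the inhibitor was above 1 in liver 1 alone, and the ranges of the 2 transcripts overlapped.

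Apoa5 (chromosome 9, 46268608 to 46271919), which promotes triglyceride lipolysis and is present in plasma at very low concentration, was 648, 694, 882 and 784 FPKM in livers 1 to 4, with a mean of 752 ± 103 FPKM (SD, n = 4). Livers 3 and 4 were above livers 1 and 2, and the range was 1.36-fold. Its ratio to Apoc3, with which it shares the cluster on chromosome 9, was 0.145, 0.117, 0.173 and 0.152 in livers 1 to 4.

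Apoc1 (chromosome 7, 19689480 to 19692659), an inhibitor of lipoprotein uptake, was the steadiest member. It was 8229, 8167, 8764 and 8868 FPKM in livers 1 to 4, with a mean of 8507 ± 360.2 FPKM (SD, n = 4). The range was 1.09-fold, and only 2.63% of abundant genes had a smaller SD of log2(FPKM + 1). Which liver was the highest depended on the scaling, being liver 4 as deposited and liver 3 with median-ratio scaling or equal totals.

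**Figure D2:**
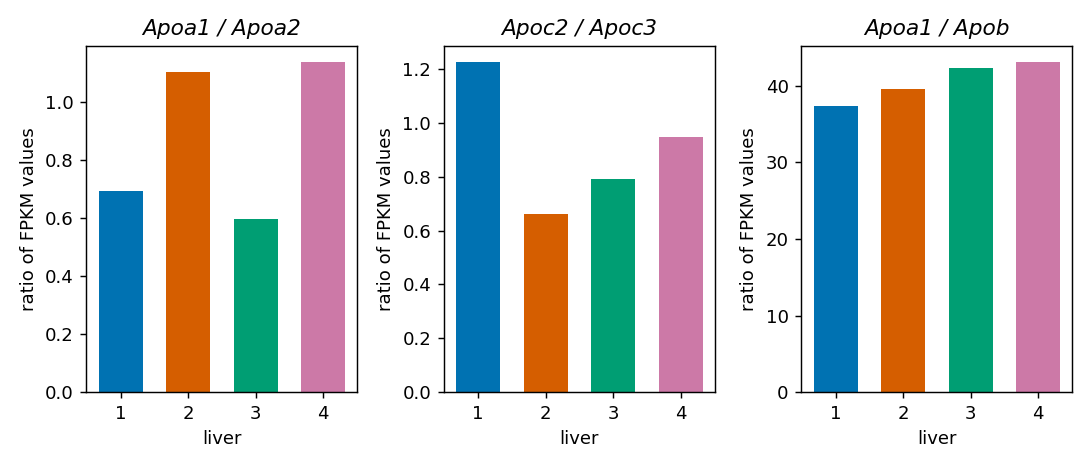
Ratios of FPKM values in livers 1 to 4 for Apoa1 to Apoa2, for the Apoc2 row (which also spans Apoc4) to Apoc3, and for Apoa1 to Apob, each on an axis that starts at 0. The first ratio takes low values in livers 1 and 3, the second is highest in liver 1, and the third has a range of 1.15-fold.

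By mean level the order was Apoa2, Apoa1, Apoc1, Apoc3, Apoc2, Apoa4, Apoa5, Apob and Apom. Ranked among all rows these were at places 1, 2, 5, 8, 13, 15, 103, 260 and 461. Overlapping ranges were found in 3 pairs of neighbours in this order: Apoa2 with Apoa1, Apoc3 with Apoc2, and Apoc2 with Apoa4, where the upper gene was higher in 2, 3 and 3 of 4 livers. The other 5 pairs did not overlap and kept their order in 4 of 4 livers. The widest step was from Apoa4 to Apoa5, where the ratio was between 3.15 and 6.32.

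In livers 1 to 4 the share of the column sum that belonged to the members was 9.98%, 9.03%, 10.6% and 9.29%, with a mean of 9.73 ± 0.724% (SD, n = 4). Alb, Trf and Apoe were listed at 0 and add nothing to the sum, so these are shares of the listed values only. Apoa2 and Apoa1 made up 54.99% of the members' own sum on average, with Apoa2 contributing between 23.7% and 37.6%. Some of the most abundant members have short transcripts: the longest coding transcript is 518 bases for Apoa2 and 532 bases for Apoc1. It is 1035 bases for Apoa1, 1013 bases for Apom and 13934 bases for Apob. When the 23134 rows with an annotated length were weighted by it, to approximate the share of sequenced fragments, and 1004 rows holding 2.13% of the FPKM were left out, the members held 4.56 ± 0.095% (SD, n = 4), with 4.62%, 4.44%, 4.66% and 4.53% in livers 1 to 4. Apob was 0.617% of the members' sum in FPKM and 9.58% with length weights, and Apoa2 was 29.9% and 17.5%. Apoa1 was 25.1% and 28.9%, so it stood above Apoa2 with length weights.

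From the estimated depth and the longest coding transcript, each member was covered by about 2687 fragments or more in every liver. The counting error this implies was 1.93% at most for Apom and 0.436% at most for Apoc1, where the coefficients of variation between livers were 9.61% and 4.23%. These figures treat fragments as independent molecules and leave out noise from library preparation.

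The spread of the members was near that of other genes. The median SD of log2(FPKM + 1) was 0.17 over the 9 members, 0.16 over 10541 expressed genes and 0.16 over 1407 abundant genes. A range of at least 1.5-fold was found in 2 of 9 members, Apoa2 and Apoa4, where 14.4% of abundant genes and 28.4% of expressed genes had one. Just under that fold was Apoc2, at 1.39.

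**Figure D3:**
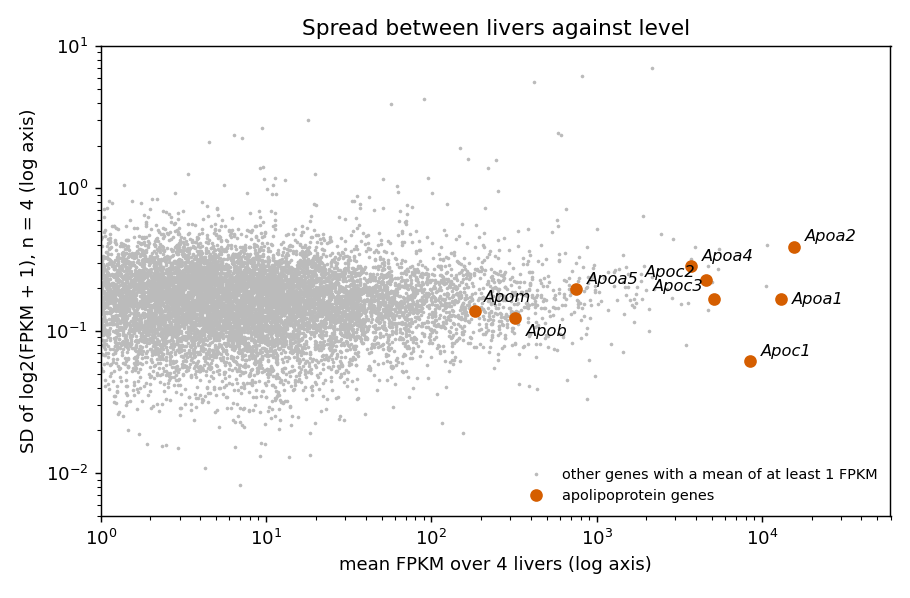
SD of log2(FPKM + 1) over 4 livers against mean FPKM, both on log axes, for 10541 expressed genes in grey and the 9 apolipoprotein genes in orange. At the abundant end Apoa2 has an SD of 0.39 and Apoc1 of 0.06, with the other members between them.

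The members did not move as a block. Liver 4 was above the mean of 4 livers in 8 of 9 members, where 84.2% of abundant genes were, and this count was 7 of 9 with median-ratio scaling (74.8% of abundant genes) and 4 of 9 with totals made equal (58%). The highest liver was liver 4 in 4 of 9 members (53% of abundant genes), liver 3 in 2 (18.3%), liver 2 in 2 (16.5%) and liver 1 in 1 (12.2%), and with totals made equal these counts were 2, 3, 3 and 1 (23.4%, 28.7%, 28.4% and 19.5%). The lowest was liver 1 in 4 of 9 members (24.6% of abundant genes), liver 2 in 3 (33.8%), liver 3 in 2 (37.8%) and liver 4 in 0 (3.77%). The median deviation of the members was -0.05, -0.06, -0.07 and 0.09 in livers 1 to 4, against -0.03, -0.04, -0.06 and 0.12 for abundant genes, and in liver 3 it was -0.01 without liver 4 and -0.02 with totals made equal. In liver 2 its sign turned without liver 4, at 0.017.

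**Figure D4:**
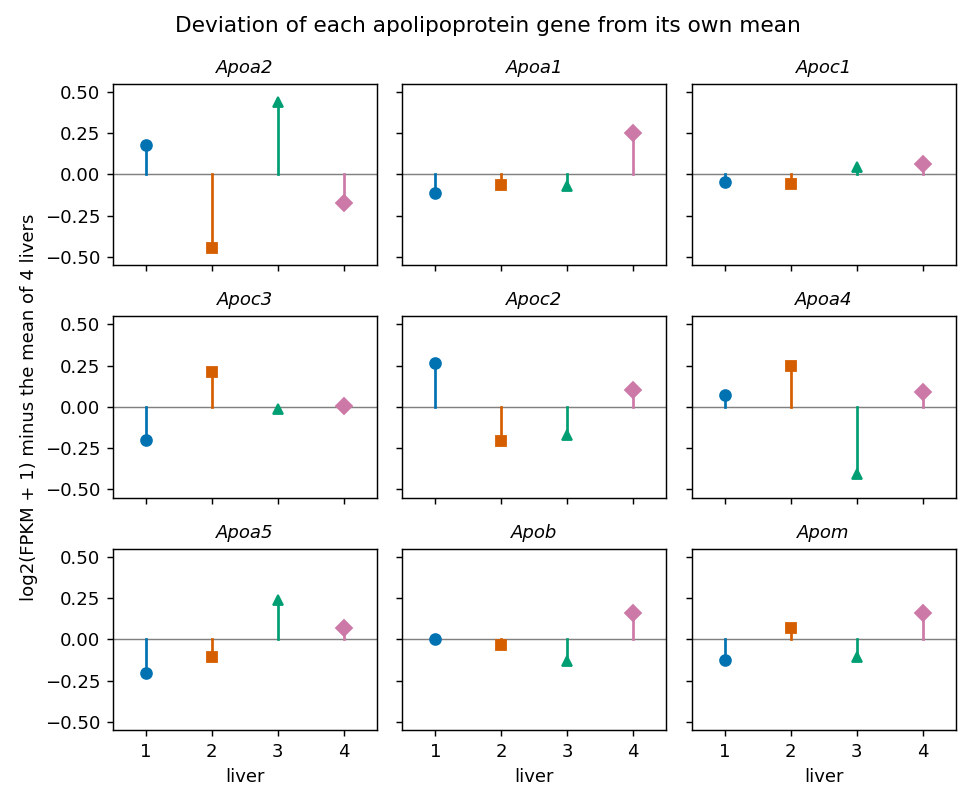
Deviation of log2(FPKM + 1) from the mean of 4 livers for each of the 9 apolipoprotein genes, with 1 point for each liver and a shared vertical axis. Apoa2 is high in liver 3 (0.44) and low in liver 2 (-0.45), Apoa4 is low in liver 3 (-0.41) and high in liver 2 (0.25), and Apoc1 stays near 0.

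Likeness between members was measured as the root mean square difference of these deviations over the 4 livers, a description that rests on 4 points for each pair. The closest of 36 pairs were Apoa1 with Apob (0.08), Apob with Apom (0.08) and Apoa1 with Apom (0.08), genes on chromosomes 9, 12 and 17. Liver 4 was the highest in these genes as deposited, and such closeness was common: 21.1%, 33.8% and 27.7% of abundant genes lay within 0.1 of Apoa1, Apob and Apom. The most distant pair was Apoa2 with Apoa4 (0.57). The 7 pairs on the same chromosome had a median difference of 0.20 (range 0.19 to 0.39), and the 29 pairs on different chromosomes one of 0.22 (range 0.08 to 0.57). The cluster on chromosome 9 is 43290 bases long from Apoa1 to Apoa5, and Apoa4 and Apoa5, which are neighbours in it, differed by 0.39.

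For the members with a range of at least 1.5-fold, the nearest genes by the same measure were sought among the other 1406 abundant genes. Nearest to Apoa2 were Tkfc, an enzyme of fructose metabolism (0.07), Mfsd2a, a transporter of lysophosphatidylcholine that carries docosahexaenoic acid (0.08), and Aes, a transcriptional corepressor (0.14). Tkfc was 292, 178, 336 and 201 FPKM in livers 1 to 4, and Mfsd2a was 119.6, 89.7, 147 and 96.5 FPKM. Both had the order of the livers seen in Apoa2, to which they had been matched on the same 4 livers. Within a difference of 0.1 lay 2 genes (0.142%). Nearest to Apoa4 were Acot13, an acyl-CoA thioesterase (0.05), Rps12, a ribosomal protein gene (0.05), and Nme1, a nucleoside diphosphate kinase (0.05), and 34 genes (2.42%) lay within 0.1.

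All 15 genes of the assembly and secretion of particles with apolipoprotein B were expressed, and 1 of 15 had a range of at least 1.5-fold, where 28.4% of expressed genes did. Their median range was 1.27-fold, against 1.34-fold for expressed genes. Mttp, which transfers lipid onto nascent apolipoprotein B, was 91.2, 83.4, 82.1 and 86.9 FPKM in livers 1 to 4. P4hb, the partner subunit of the transfer protein, was 837 ± 90.2 FPKM, Cideb, a lipid droplet protein needed for particle lipidation, 316 ± 49.2 FPKM, and Sar1b, a GTPase of transport vesicles, 180.1 ± 9.70 FPKM (each SD, n = 4). Tm6sf2, which acts in the lipidation of these particles, had the widest range (1.51-fold), at 19.9, 25.5, 17.0 and 19.6 FPKM. Sec24d, a coat protein of transport vesicles, had a range of 1.47-fold. Apobec1, the enzyme that edits the Apob transcript to give the shorter protein, was 6.74, 9.75, 8.66 and 6.63 FPKM.

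Lipases and their regulators had a median range of 1.33-fold, with 3 of 9 expressed genes at 1.5-fold or more, against 28.4% of all expressed genes. Lipc, hepatic lipase, was 66.6 ± 7.03 FPKM, and Lpl, lipoprotein lipase, 33.5 ± 4.30 FPKM (each SD, n = 4). Angptl4, a secreted inhibitor of the lipase, was 61.3 ± 4.79 FPKM (SD, n = 4), and Angptl8 had no row under that symbol. Gpihbp1, the endothelial anchor of lipoprotein lipase, was lowest in liver 1, at 11.9, 24.9, 19.4 and 24.5 FPKM in livers 1 to 4, and Mylip, a ubiquitin ligase, had a range of 1.56-fold. The markers of sinusoidal endothelium summed to 45.1, 60.9, 49.4 and 57.2 FPKM, with 6 of 7 markers in the table, and their part in the values of Gpihbp1 was not tested.

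Of the genes of uptake, 9 of 13 were expressed, and 0 of 9 had a range of 1.5-fold, which 28.4% of all expressed genes had. Lsr, a receptor for triglyceride-rich particles, was 152 ± 22.5 FPKM, Scarb1, the HDL receptor, 143.5 ± 20.04 FPKM, and Lrp1, a receptor for remnants, 46.1 ± 3.31 FPKM (each SD, n = 4). Stab1, a scavenger receptor, had a range of 1.45-fold. Cubn was above 0 in liver 3 only, at 0.00431 FPKM. Among 10 genes of HDL formation 2 had a range of at least 1.5-fold, against the same 28.4%. Lcat was 298, 421, 414 and 439.8 FPKM in livers 1 to 4, lowest in liver 1, as were 24.6% of abundant genes. Pon1, an antioxidant enzyme bound to HDL, was 376, 296, 303 and 459 FPKM, and Abca1, which loads lipid onto apolipoprotein A-I, 19.9 ± 1.11 FPKM (SD, n = 4). Abcg1, another cholesterol exporter, had a range of 1.52-fold.

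Among lipoprotein-borne proteins outside the set, Apoh, a plasma glycoprotein that binds phospholipid, was 1643 ± 180 FPKM and Clu, or apolipoprotein J, 1219 ± 69.4 FPKM (each SD, n = 4). Apoe, which directs remnants to hepatic receptors and lies beside Apoc1, was listed at 0 in each liver, as was Apol6, and Apod was above 0 only in liver 2 (0.0238 FPKM). As with Alb and Trf, the 0 of Apoe need not mean that the transcript was absent. Saa4, the constitutive serum amyloid A of HDL, was 49.9, 77.4, 102 and 78.3 FPKM in livers 1 to 4. Apol9a and Apol9b, which are near-identical copies whose fragments may be split between rows, had ranges of 2.04-fold and 1.75-fold. In this list 4 of 9 expressed genes had a range of 1.5-fold or more, against 28.4% of all expressed genes.

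Transcription factors with textbook links to apolipoprotein genes had a range of at least 1.5-fold in 11 of 22 expressed genes, where 28.4% of all expressed genes did, and 15 of 22 lay above their mean in liver 3, where 47% of expressed genes did. Hnf4a, a nuclear receptor that binds many apolipoprotein promoters, was 93.9, 103.8, 155.9 and 118 FPKM in livers 1 to 4, and Cebpa, a hepatocyte factor, was 142, 181, 293 and 159.98 FPKM. Liver 3 was the highest for both, as it was for Apoa2 and Apoa5, and for Apoc1 with either scaling. It was the lowest for Apoa4 and Apob, 2 of 9 members, and for 37.8% of abundant genes. In liver 3, 3 of 9 members lay above their mean as deposited, where 36.2% of abundant genes did. With median-ratio scaling and with totals made equal this count was 4 of 9 (39.4% and 45.6% of abundant genes). The part of these factors in the members' values was not tested. Creb3l3, an activator of Apoa4 and Apoa5, was 128.5 ± 14.6 FPKM, Ppara, the fatty acid receptor, 60.6 ± 4.83 FPKM, and Srebf1, a regulator of lipogenesis, 170.7 ± 29.6 FPKM (each SD, n = 4). The widest ranges were those of Nr0b2 (3.89-fold), a corepressor induced by bile acids, Nr1d1 (2.21-fold), a clock repressor, and Mlxipl (2.06-fold), a carbohydrate-responsive factor.

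The acute phase genes, which include the serum amyloid A proteins that bind to HDL, summed to 10809, 21277, 9498 and 12825 FPKM in livers 1 to 4, with 14 of 15 expressed genes above their mean in liver 2, where 45.1% of expressed genes were. Hpx, Hp and Fgg, the most abundant of them, encode haem and haemoglobin binders and a fibrinogen chain. The widest ranges were those of Saa2, Saa1 and Lcn2, at 49.5-fold, 46.9-fold and 12.9-fold. These rested on liver 2: without it, an alternative chosen after seeing the data, they were 2.51-fold, 3.04-fold and 2.06-fold, while the range of the sum was 1.35-fold against 2.24-fold. The order of the livers by this sum (2, 4, 1, 3) was that of Apoa4 as deposited, though not with either scaling, and the reverse of that of Apoa2 under each scaling. Without liver 2 the range of Apoa2 was 1.53-fold, against 1.85-fold, and its order remained the reverse of that of the sum. The part of the acute phase response in these values was not tested. Markers of other cells also differed between livers: those of stellate cells summed to 240, 302, 195 and 219 FPKM in livers 1 to 4. Of these, 7 of 8 were above their mean in liver 2, 1 of 8 in liver 3 and 1 of 8 in liver 4, against 45.1%, 47% and 60.8% of expressed genes. Those of Kupffer cells and macrophages summed to 118, 145, 108 and 163 FPKM, with 7 of 8 expressed markers above their mean in liver 2, 1 of 8 in liver 3 and 7 of 8 in liver 4, where 60.8% of expressed genes were. Sinusoidal endothelial markers were above their mean in 5 of 6 in liver 2, 1 of 6 in liver 3 and 4 of 6 in liver 4. Erythroid markers, in 4 rows, summed to 1076, 829.6, 428 and 705 FPKM. Their part in the members' values was not tested.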

How the data were processed

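RNA sequencing after poly(A) enrichment, per the labels' protocols, was carried out on liver RNA from 4 mice of 1 group. The submitters' processing notes name FastQC 0.10.1, Trim Galore 0.6.3, cutadapt, STAR 2.7.6a, Cufflinks 2.2.1 and the build mm10. The annotation is not given in the sources used here. The authors deposited 1 value for each gene and liver with no unit named. These deposited values, made by the authors with the tools above per the submitters' processing notes, were taken to be FPKM, since they are not whole numbers, their column sums differ and the identifiers have the form that Cufflinks writes. Rows follow loci, and a locus can merge genes. Deposited start positions were raised by 1 to match RefSeq starts, and 0 value columns were left unmatched.

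The depth estimate used genes having only 1 GENCODE vM21 transcript, of over 800 bases, and was read as the value of 1 fragment (median of FPKM times length less 200 bases, between 25 and 75), and is approximate. Means, SDs, ranges (highest over lowest liver) and deviations of log2(FPKM + 1) were computed with Python 3.11.15, numpy 2.4.6 and pandas 2.3.3. The functions were tested on simulated data. Promoter windows came from RefSeq (GRCm38.p6). The gene lists and members were chosen with earlier results of these data known. Named from each list were the 3 genes with the highest mean, the 3 with the widest range, those listed at 0 and direct partners of a member. Values of some of these genes are not reported here. The alternatives were other pseudocounts (0.1 and 5), median-ratio scaling, scaling to equal totals, other sums, a minimum mean of 50 FPKM, and leaving out each liver.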

Additional observations from a re-analysis of the deposited data

Results flagged for a closer look

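A liver standing apart from the other 3, by a gap to the nearest that took up most of the whole range (Dixon's ratio at its 95% critical value), was found in 13 of 108 values checked. The values checked were 94 expressed genes of the members and gene lists and 14 combined values or ratios. Chance passes about 5% of groups, and 5.54% of abundant genes passed. The acute phase list was included with liver 2 already known to stand apart for its genes. The count of 13 therefore cannot be set against these rates. Among the members, as deposited, Apoa1 alone passed, with liver 4 the highest at 15343 FPKM (ratio 0.884). In liver 2, Saa2 (0.969), Saa1 (0.955), Orm1 (0.938), Lcn2 (0.911), Orm2 (0.857) and Itih4 (0.834), all acute phase genes, were the highest. Lrpap1, a chaperone of lipoprotein receptors, was lowest in liver 2 (0.872). In liver 4, Sort1, a sorting receptor for apolipoprotein B (0.947), and Mia2, a secretion factor (0.850), were the highest, and Abca7, a lipid transporter (0.842), was the lowest. In liver 3, Nr1h2, an oxysterol receptor (0.938), and Srebf2, a regulator of cholesterol synthesis (0.857), were the highest. In an alternative chosen after seeing the data, the ratios were computed again under each scaling. With median-ratio scaling 9 of these 13 passed, and Apoa1 (0.820), Lrpap1 (0.623), Mia2 (0.787) and Srebf2 (0.736) did not. With totals made equal 8 of 13 passed, and Apoa1 (0.746), Lrpap1 (0.398), Mia2 (0.187), Srebf2 (0.652) and Nr1h2 (0.761) did not. The member that passed with totals made equal was Apoc1, with liver 3 the highest (0.892).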

How the results depend on the processing

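Of 49 alternative values of the main results, 45 stayed within their margin, which was 1 SD between livers for levels, shares, ratios and deviations and 1.5-fold for counts and the median SD. All 54 alternative values of the members' means stayed within 1 SD. Leaving out 1 of 4 livers cannot move a mean by as much as 1 SD. For means, shares and ratios, the values without a liver could therefore not have left this margin. The members' share of the summed FPKM was 4.56% when weighted by transcript length, against 9.73%. The number of members with a range of at least 1.5-fold was 1 or 2 on leaving out each liver in turn, being 1 without liver 2 and without liver 3, where Apoa4 no longer had one. The median deviation of the members in liver 2 was -0.06, and on leaving out another liver it ranged from -0.074 to 0.017, changing sign without liver 4 (0.017). In liver 3 it was -0.069, -0.011 without liver 4 and -0.025 with equal totals. All 9 members had a mean of at least 50 FPKM, so that filter changed nothing. Leaving out liver 2 or liver 3 gives no deviation for the liver left out. The depth limits no level of a member, while values of listed genes near 0 rest on few fragments. No paired analysis was possible because there is a single group.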

Other observations

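The row of Apoe (chromosome 7, 19696244 to 19699188) lies between those of Apoc1 and Tomm40 and was listed at 0 in the 4 livers. The hepatocyte markers Alb and Trf were also listed at 0, so a listed 0 need not mean that a gene is silent. Tomm40, a mitochondrial import gene, was 34.3, 29.5, 38.2 and 35.0 FPKM in livers 1 to 4. Clptm1, on the other side of the cluster, was 28.9, 27.7, 35.5 and 31.95 FPKM. Beside the cluster on chromosome 9, Sik3, a kinase gene, was 9.27 ± 1.15 FPKM and Zpr1, a zinc finger gene, 14.3 ± 1.24 FPKM (each SD, n = 4).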
